A study of Sus scrofa with 7 samples.

Results

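The Notch pathway was examined through its ligands DLL1, DLL3, JAG1 and JAG2, its receptors NOTCH1, NOTCH2 and NOTCH3, its DNA-binding factor RBPJ and its target genes HES1 and HEY1, in porcine extra-embryonic endoderm (pXEN) cells and porcine embryonic stem cells (ESCs). These 10 genes were looked up by symbol among the 29510 genes listed, and 8 of them had a row. NOTCH1 and DLL3 had no row under their symbols. All 8 passed the filter on low counts and were among the 17447 genes tested.

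RNA was sequenced from 7 pig cell lines with 1 library per line. The 3 pXEN lines, at passages 26, 26 and 23, came from inner cell masses of parthenogenetic blastocysts and grew on mouse embryonic fibroblasts in LCDM medium (hLIF, CHIR99021, (S)-(+)-dimethindene maleate and minocycline hydrochloride) with Y27632 and serum. The 2 naïve-like ESC (nESC) lines, at passages 21 and 22, grew on mouse embryonic fibroblasts with FGF, hLIF, doxycycline and the inhibitors PD0325901, CHIR99021 and SB431542. The 2 primed ESC (pESC) lines, both at passage 20, are labelled as converted from nESCs and grew on STO cells, a mouse fibroblast line, with activin A, bFGF, EGF and hLIF. All 3 cell types therefore shared mouse feeder cells and hLIF, and medium, feeder and cell type cannot be told apart.

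Notch signalling passes between touching cells. A ligand of the Delta or Jagged family on one cell binds a Notch receptor on its neighbour, ADAM proteases and then γ-secretase cut the receptor, and the released intracellular part enters the nucleus and joins RBPJ and a Mastermind coactivator on target genes such as those of the HES and HEY families, which encode transcriptional repressors. The pathway is known for setting neighbouring cells on different fates in many tissues of the embryo.

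The libraries held 10408164 to 12995720 reads counted on genes, and the floor of detection was set at 3 counts, or 0.231 to 0.288 CPM (each count relative to the total of its library). This floor and the counting intervals given for low genes cover counting error only. The 7 endoderm markers examined were all detected in each pXEN line, with summed levels of 8163 to 9197 CPM against 97.3 to 955 CPM in the ESC lines. SOX2 was at 144 to 210 CPM in the ESC lines and at 0 to 2.38 CPM in the pXEN lines, while the pluripotency factor POU5F1 did not exceed 0.424 CPM in any library. The pluripotency factor NANOG went the other way from SOX2, at 17.0, 4.76 and 14.5 CPM in the pXEN lines and 0 to 1.78 CPM in the ESC lines. The paper reports OCT4, the protein of POU5F1, in nESCs and pESCs, and NANOG in nESCs but not in pXEN cells. The POU5F1 and NANOG rows here do not show that pattern, and the reason was not tested. ESRRB was at 71.0 to 71.3 CPM in the pESC lines, 1.57 to 2.30 CPM in the nESC lines and 0 in the pXEN lines. One library stood apart. The 8 fibroblast markers with a row summed to 478 CPM in pXEN line 2 against 9.80 and 27.2 CPM in pXEN lines 1 and 3, 47.6 to 48.7 CPM in the nESC lines and 123 to 191 CPM in the pESC lines. Of these, COL3A1 reached 337 CPM in pXEN line 2, but TWIST1 and PRRX1 did not exceed 0.192 CPM in any pXEN line, and 4, 6 and 6 of the 8 were above the floor in pXEN lines 1, 2 and 3. Genes of chromosome Y had 38 counts in pXEN line 2 and 1 and 3 counts in the other two, against 11 and 4 in the nESC lines and 0 and 1 in the pESC lines.

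Levels are given as FPKM (fragments scaled by gene length and by library total), which allows comparison between genes, with mean ± SD over lines (n = 3 pXEN, n = 2 nESC and n = 2 pESC). Differences are log2 fold changes of the counts with their standard error (SE), and a call is a Benjamini-Hochberg adjusted p below 0.05 in edgeR's quasi-likelihood test over all genes tested. Fewer cells that express a gene and less RNA per cell cannot be told apart in such bulk libraries.

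The pXEN lines held more DLL1, NOTCH3 and HES1 RNA than either type of ESC, and less JAG1, JAG2, HEY1 and RBPJ RNA. Against nESCs, 3 of the 8 genes were called higher and 4 lower, beside 54.5% of all genes tested (28.3% higher and 26.2% lower). Against pESCs the same 3 genes were higher and the same 4 lower, beside 48.3% of all genes (23.9% higher and 24.4% lower). Between the ESC types, JAG2 and HES1 were higher in pESCs and NOTCH3 and DLL1 lower, 4 genes of 8 beside 32.2% of all genes (19.0% higher and 13.3% lower). The median log2 fold change of the 8 genes was 0.10, −0.42 and −0.19 in these comparisons, against −0.00, −0.01 and 0.01 over all genes tested. The comparisons share libraries and are therefore not independent of each other.

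**Figure D1:**
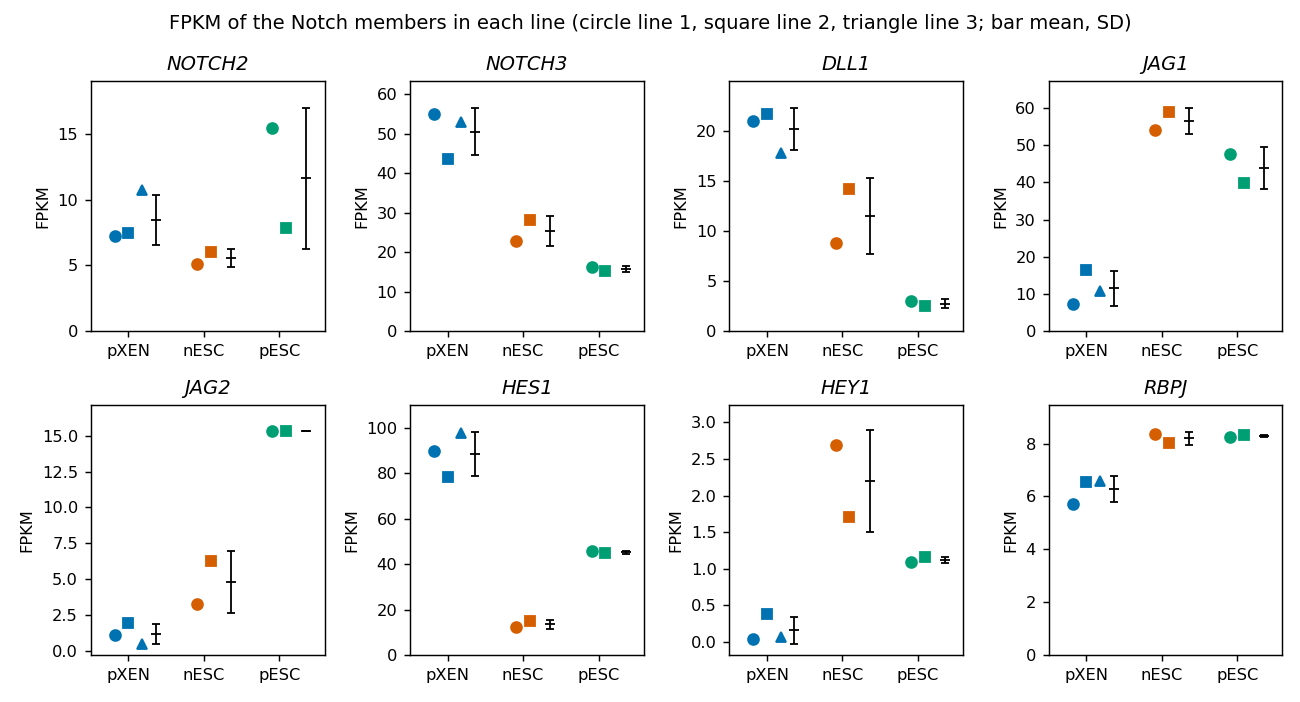
FPKM (y axis, linear, 1 scale per gene) of the 8 Notch genes in each of the 7 lines, by cell type (x axis). Points are lines and the bars beside them give the mean and SD. DLL1, NOTCH3 and HES1 lie highest in the pXEN lines, and JAG1, JAG2, HEY1 and RBPJ lie lowest there.

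DLL1, a Delta-family ligand, lies on chromosome 1 (280458 to 290229, plus strand, build Sscrofa10.2, ENSSSCG00000027726). It was at 21.0, 21.7 and 17.8 FPKM in pXEN lines 1 to 3, at 8.80 and 14.2 FPKM in the nESC lines and at 3.05 and 2.47 FPKM in the pESC lines. Every pXEN line lay above every nESC line, and both nESC lines lay above the pESC lines. The level was 1.74-fold higher in pXEN cells than in nESCs (log2 fold change 0.80, SE 0.22, adjusted p = 0.0147) and 7.35-fold higher than in pESCs (2.88, SE 0.25, adjusted p = 6.4e-05). From nESCs to pESCs it fell by 2.07 on the log2 scale (SE 0.25, adjusted p = 0.000759). The call against nESCs was lost without nESC line 1, the lower of the pair (0.49, adjusted p = 0.0963).

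JAG1, a Jagged-family ligand (chromosome 17, 22065796 to 22104506, minus strand, ENSSSCG00000007067), was lowest in pXEN cells. Its level was 7.27, 16.5 and 10.8 FPKM in the pXEN lines, 54.1 and 59.0 FPKM in the nESC lines and 47.7 and 39.8 FPKM in the pESC lines. The highest pXEN value, in line 2, was below the lowest ESC value. JAG1 was 4.92-fold lower in pXEN cells than in nESCs (log2 fold change −2.30, SE 0.29, adjusted p = 0.000325) and 3.77-fold lower than in pESCs (−1.91, SE 0.29, adjusted p = 0.00103). The ESC types did not differ by the test (−0.38, SE 0.31, adjusted p = 0.391), although a fit of those 4 libraries alone called the difference (adjusted p = 0.0272).

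JAG2, the other Jagged-family ligand (chromosome 7, 131225912 to 131334309, minus strand, ENSSSCG00000002555), was highest in pESCs. It was at 1.14, 1.95 and 0.522 FPKM in the pXEN lines, 3.29 and 6.31 FPKM in the nESC lines and 15.3 FPKM in each pESC line. No groups overlapped. It was 3.98-fold lower in pXEN cells than in nESCs (log2 fold change −1.99, SE 0.46, adjusted p = 0.00686), 12.5-fold lower than in pESCs (−3.65, SE 0.45, adjusted p = 0.000403) and 3.15-fold higher in pESCs than in nESCs (1.66, SE 0.47, adjusted p = 0.0298). Without nESC line 2, which held the higher nESC value, the difference between pXEN cells and nESCs was −1.44 (adjusted p = 0.067), and the call between the ESC types was lost without nESC line 1 (adjusted p = 0.183) or either pESC line (0.118 and 0.121). Its listed interval also covers 3 other genes on the same strand (CDCA4, UGPP and GPR132), so that its reads and theirs may not be fully separate.

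The make-up of the ligand RNA therefore differed between the cell types. DLL1 took 62.2% ± 8.70 of the summed FPKM of these 3 ligands in pXEN cells, 15.6% ± 3.25 in nESCs and 4.46% ± 0.233 in pESCs, and the ranges over lines (54.1% to 71.4%, 13.3% to 17.9% and 4.29% to 4.62%) did not meet. JAG1 took the largest share in both ESC types, 78.0% ± 5.30 in nESCs and 70.7% ± 2.19 in pESCs, against 34.3% ± 8.53 in pXEN cells. JAG2 made up 24.9% ± 2.47 in pESCs, 6.45% ± 2.09 in nESCs and 3.50% ± 1.56 in pXEN cells. These shares are descriptions of the same levels and carry no test of their own.

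**Figure D2:**
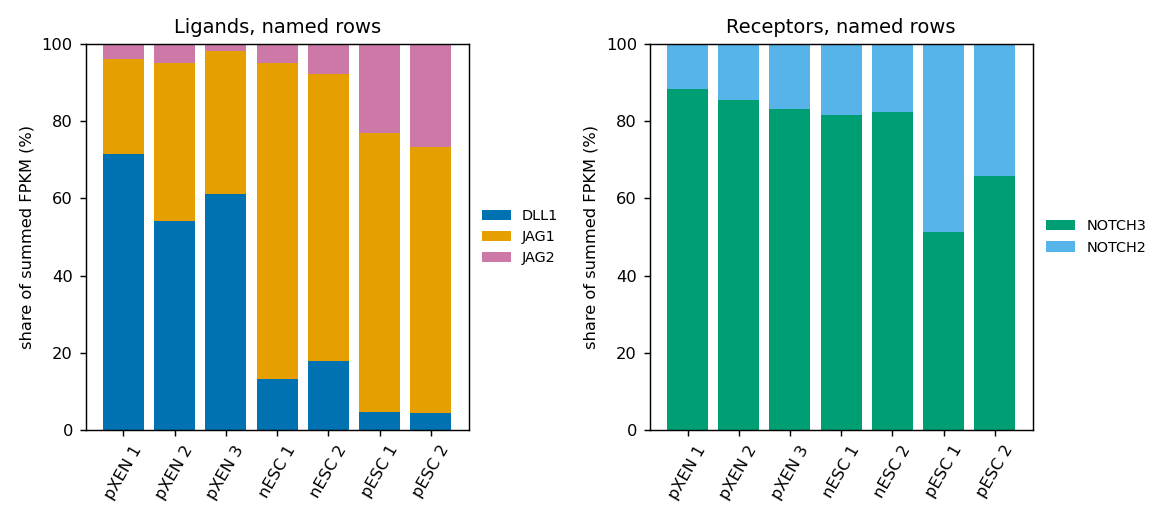
Share (%) of the summed FPKM taken by each ligand (left) and by the NOTCH2 and NOTCH3 rows that carry the symbol (right) in each of the 7 lines. DLL1 is the largest ligand share in each pXEN line (54.1% to 71.4%), and JAG1 is the largest in each ESC line.

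DLL3, a divergent Delta-family protein, is described in the files on 2 rows that carry no symbol and that were found after the values had been seen. Both lie on chromosome 6. The first (ENSSSCG00000029254, 43998606 to 44008537) had 0 counts in every pXEN line, 4 and 41 counts in the nESC lines and 2 in each pESC line, and the other (ENSSSCG00000002987, 43804625 to 43812120) had at most 6 counts in any library. Neither passed the filter, and with 0 or 1 count in the pXEN lines DLL3 was not detectable there at this depth.

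NOTCH3, a Notch receptor, is listed by symbol on chromosome 2 (61892253 to 61908778, minus strand, ENSSSCG00000023899). It was at 54.9, 43.7 and 53.0 FPKM in the pXEN lines, 22.7 and 28.1 FPKM in the nESC lines and 16.2 and 15.2 FPKM in the pESC lines. The groups did not overlap, and pXEN cells were highest. NOTCH3 was 1.98-fold higher in pXEN cells than in nESCs (log2 fold change 0.99, SE 0.14, adjusted p = 0.000659) and 3.24-fold higher than in pESCs (1.70, SE 0.15, adjusted p = 6.67e-05). It was 1.64-fold lower in pESCs than in nESCs (−0.71, SE 0.15, adjusted p = 0.00984), a call that was lost without nESC line 2 or either pESC line (adjusted p = 0.0598 to 0.0816).

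A further row on chromosome 2 (61948629 to 61963162, plus strand, ENSSSCG00000025176) has no symbol in the table but is described as Notch 3. It held 56.5, 46.2 and 49.0 FPKM in the pXEN lines, 26.1 and 30.4 FPKM in the nESC lines and 14.8 and 14.1 FPKM in the pESC lines. These are nearly the levels of the named row, in the same order of cell types. The log2 fold changes were 0.84 (SE 0.13, adjusted p = 0.000872) against nESCs, 1.82 (SE 0.13, adjusted p = 3e-05) against pESCs and −0.98 (SE 0.14, adjusted p = 0.0015) from nESCs to pESCs.

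NOTCH2, another Notch receptor, was the only one of the 8 genes with no call in any comparison in edgeR's test of the named row. Its named row lies on an unplaced scaffold (GL893511.2, 242611 to 266746, plus strand, ENSSSCG00000022819) and held 7.26, 7.47 and 10.7 FPKM in the pXEN lines, 5.08 and 6.02 FPKM in the nESC lines and 15.4 and 7.84 FPKM in the pESC lines. The pESC lines differed from each other by more than the means of the cell types did, and their range overlapped that of the pXEN lines. The log2 fold changes were 0.60 (SE 0.32, adjusted p = 0.147) against nESCs, −0.45 (SE 0.31, adjusted p = 0.264) against pESCs and 1.05 (SE 0.35, adjusted p = 0.0502) from nESCs to pESCs. The last of these became a call in 7 of the planned settings, namely RLE size factors (adjusted p = 0.0494), no filter (0.0398), the filter of 10 counts in every library (0.046), DESeq2 (0.028), the 2 ESC types alone (0.0363), without pXEN line 2 (0.031) and without pESC line 2 (0.022), and its adjusted p was up to 0.354 in the others. Without pESC line 1 the difference between pXEN cells and pESCs changed its sign to 0.11 (adjusted p = 0.818).

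Most reads described as Notch 2 were on another row. That row (chromosome 4, 110927013 to 110985928, plus strand, ENSSSCG00000006709) had 1626 to 3429 counts per library, against 106 to 335 for the named row. Its levels were 19.6, 18.8 and 18.8 FPKM in the pXEN lines, 19.2 and 17.9 FPKM in the nESC lines and 32.2 and 25.4 FPKM in the pESC lines. Both pESC lines lay above all 5 other lines, and pXEN cells and nESCs overlapped. It was called lower in pXEN cells than in pESCs (log2 fold change −0.59, SE 0.12, adjusted p = 0.00425) and higher in pESCs than in nESCs (0.62, SE 0.13, adjusted p = 0.00869), with 0.04 (SE 0.12, adjusted p = 0.822) between pXEN cells and nESCs. Both calls were lost without pESC line 1 (adjusted p = 0.053 and 0.0749), and the second also without nESC line 2 (adjusted p = 0.0607).

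The third Notch 2 row, on the same scaffold as the named one (188716 to 229696, ENSSSCG00000024716), had a log2 fold change of −0.59 against pESCs (SE 0.21, adjusted p = 0.0451), −0.02 against nESCs (SE 0.21, adjusted p = 0.939) and 0.57 from nESCs to pESCs (SE 0.23, adjusted p = 0.0948). Its call was lost without any 1 of the libraries except pXEN line 3 (adjusted p up to 0.236). With the rows of each receptor summed, an alternative chosen after seeing the data, NOTCH2 was called lower in pXEN cells than in pESCs (−0.58, adjusted p = 0.0054) and higher in pESCs than in nESCs (0.64, adjusted p = 0.00863), and not between pXEN cells and nESCs (0.07, adjusted p = 0.661). Summed NOTCH3 kept its 3 calls (0.92, 1.74 and −0.82, adjusted p = 0.000628, 4.23e-05 and 0.00382). How reads shared by such rows were counted is not given in the sources used here.

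**Figure D3:**
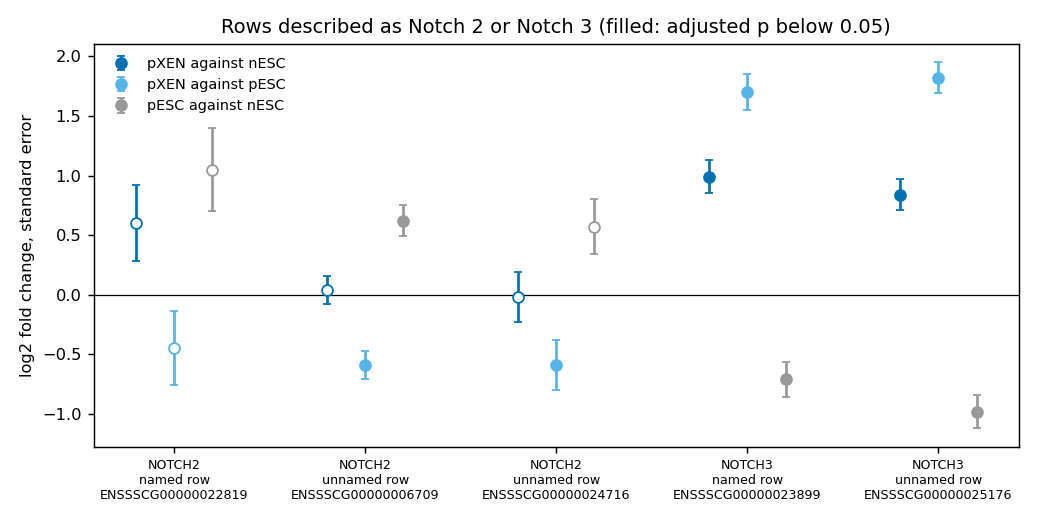
Log2 fold change (y axis, bars are the SE) of each row described as Notch 2 or Notch 3 in the 3 comparisons; filled points have an adjusted p below 0.05 in edgeR's test. Both Notch 3 rows have the same sign in each comparison, and the calls for Notch 2 come from the unnamed rows.

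RBPJ, the DNA-binding factor that the cut receptor joins in the nucleus (chromosome 8, 20436461 to 20540775, plus strand, ENSSSCG00000022155), had the smallest called differences of the 8. It was at 5.70, 6.56 and 6.59 FPKM in the pXEN lines, 8.38 and 8.02 FPKM in the nESC lines and 8.26 and 8.31 FPKM in the pESC lines. The pXEN lines lay below every ESC line, and the ESC types overlapped. The difference was 1.31-fold against nESCs (log2 fold change −0.39, SE 0.12, adjusted p = 0.0233) and 1.31-fold against pESCs (−0.39, SE 0.12, adjusted p = 0.0259), with 0.00 (SE 0.13, adjusted p = 1.0) between the ESC types. Both calls were lost without pXEN line 1, the lowest (adjusted p = 0.0731 and 0.08), without either line of the ESC type compared, and in limma's test of the FPKM. Over all settings the adjusted p ran from 0.00406 to 0.109 against nESCs and from 0.0106 to 0.123 against pESCs.

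HES1 and HEY1, both targets of the pathway that encode basic helix-loop-helix repressors, moved in opposite directions in pXEN cells. HES1 (chromosome 13, 140633173 to 140635748, plus strand, ENSSSCG00000026362) was at 89.9, 78.4 and 97.8 FPKM in the pXEN lines, 12.2 and 15.0 FPKM in the nESC lines and 45.8 and 44.8 FPKM in the pESC lines. The order was pXEN, pESC, nESC, with no overlap. HES1 was 6.49-fold higher in pXEN cells than in nESCs (log2 fold change 2.70, SE 0.15, adjusted p = 5.18e-06), 1.97-fold higher than in pESCs (0.98, SE 0.14, adjusted p = 0.000725) and 3.30-fold higher in pESCs than in nESCs (1.72, SE 0.15, adjusted p = 0.000174). The 1128 other tested genes of chromosome 13 had a median log2 fold change of 0.46 against nESCs and 0.40 against pESCs. HES1 exceeded these medians by 2.24 and 0.58, and the part of the chromosome-wide shift in its difference was not tested. The shift was uneven between the pXEN lines. The median log2 difference of lines 1 and 3 from line 2 was 0.39 for these chromosome 13 genes, and that of HES1 was 0.24.

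HEY1 (chromosome 4, 62079660 to 62084032, plus strand, ENSSSCG00000006159) was the lowest of the 8 in every cell type. Its reads numbered 1, 12 and 2 in the pXEN lines, 90 and 55 in the nESC lines and 38 and 43 in the pESC lines, which gave 0.0368, 0.378 and 0.0659 FPKM, 2.69 and 1.71 FPKM, and 1.09 and 1.16 FPKM. Lines 1 and 3 of the pXEN cells were at or under the floor of 3 counts, and line 2 held most of the pXEN reads. On pooled CPM, HEY1 was 15.0-fold higher in nESCs than in pXEN cells (exact 95% counting interval 8.83 to 27.6) and 7.51-fold higher in pESCs (4.29 to 14.0). The edgeR log2 fold changes were −3.71 (SE 0.71, adjusted p = 0.00287) and −2.73 (SE 0.72, adjusted p = 0.0148), and −0.98 (SE 0.68, adjusted p = 0.316) from nESCs to pESCs. The call against pESCs was lost without pESC line 1 (adjusted p = 0.0573) or pESC line 2 (adjusted p = 0.0659).

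**Figure D4:**
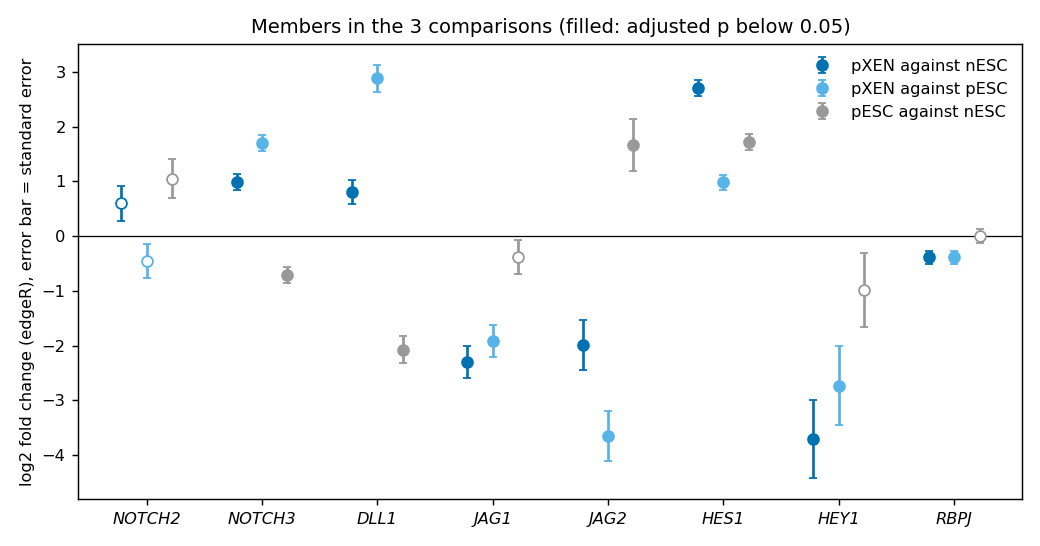
Log2 fold change (y axis, bars are the SE) of the 8 Notch genes in pXEN cells against nESCs, pXEN cells against pESCs, and pESCs against nESCs; filled points have an adjusted p below 0.05 in edgeR's test. NOTCH3, DLL1 and HES1 lie above 0 and JAG1, JAG2, HEY1 and RBPJ below 0 in both pXEN comparisons, and all NOTCH2 points are open.

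Line 2 held the highest JAG1, JAG2 and HEY1 levels of the pXEN lines, and it was also the line with the high fibroblast marker sum. By CPM, line 2 was the highest pXEN line for 3 of the 8 genes (37.5%), beside 36.2% of all genes tested. Without it, the 3 higher and 4 lower calls in each pXEN comparison remained. Calls over all genes rose from 9514 to 10359 against nESCs and from 8429 to 9566 against pESCs. The differences of JAG1, JAG2 and HEY1 were larger, which follows from leaving out their highest pXEN value. JAG1 was at −2.65 against nESCs and −2.27 against pESCs, JAG2 at −2.55 and −4.21, and HEY1 at −5.31 and −4.33, where HEY1 rested on 3 counts in pXEN lines 1 and 3 together. On pooled CPM HEY1 was then 47.7-fold higher in nESCs (exact 95% counting interval 16.0 to 234.0). The DLL1, NOTCH3 and HES1 differences were 0.75, 1.08 and 2.78 against nESCs without line 2.

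Ranked by FPKM, HES1 led in pXEN cells, followed by NOTCH3, DLL1, JAG1, NOTCH2, RBPJ, JAG2 and HEY1, and only the neighbours JAG1 and NOTCH2 overlapped over lines. In nESCs the order was JAG1, NOTCH3, HES1, DLL1, RBPJ, NOTCH2, JAG2 and HEY1, with overlap between HES1 and DLL1 and between NOTCH2 and JAG2. In pESCs HES1 and JAG1 overlapped at the top, NOTCH3, JAG2 and NOTCH2 each overlapped the gene ranked next, and RBPJ, DLL1 and HEY1 followed apart from each other. NOTCH2 was ranked by its named row. The Notch 2 row on chromosome 4, which held most of the reads, averaged 19.1 ± 0.411, 18.5 ± 0.911 and 28.8 ± 4.80 FPKM in pXEN cells, nESCs and pESCs, above the JAG1 mean in pXEN cells and above the NOTCH3 mean in pESCs. HES1 thus went from 13.6 ± 1.98 FPKM in nESCs to 45.3 ± 0.661 FPKM in pESCs and 88.7 ± 9.78 FPKM in pXEN cells. DLL1 went the other way between the ESC types, from 11.5 ± 3.84 FPKM in nESCs to 2.76 ± 0.414 FPKM in pESCs, and was at 20.2 ± 2.10 FPKM in pXEN cells.

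A list of 60 other genes of the pathway was sorted by role, of which 57 had a row and 50 were tested. In pXEN cells 17 of the 50 were called higher and 9 lower than in nESCs, which is 52.0% beside the 54.5% of all genes, and 16 were higher and 16 lower than in pESCs (64.0% beside 48.3%). From nESCs to pESCs 15 were higher and 5 lower (40.0% beside 32.2%). The median log2 fold changes of the list were 0.28, −0.02 and 0.22.

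Among the other ligands, DNER, a non-canonical Notch ligand known from neurons, stood out. It had 0, 7 and 2 counts in the pXEN lines, 360 and 519 in the nESC lines and 963 and 829 in the pESC lines. On pooled CPM it was 152.0-fold higher in nESCs than in pXEN cells (exact 95% counting interval 79.7 to 334.0) and 277.0-fold higher in pESCs (145.0 to 606.0), with adjusted p = 1.46e-05 and 1.28e-05. Without pXEN line 2, which held 7 of the 9 pXEN counts, these ratios were 434.0 (120.0 to 3590.0) and 789.0 (218.0 to 6520.0). Outside the rule for names, and chosen after its values were seen, DLK2, a non-canonical Delta-like protein, had 0 to 3 counts in the pXEN lines, 0 in both nESC lines and 14 and 18 in the pESC lines, and was called lower in pXEN cells than in pESCs (adjusted p = 0.0242) and higher in pESCs than in nESCs (adjusted p = 0.0153), calls that were lost without either pESC line, the first also with DESeq2 (adjusted p = 0.124) and the second also without either nESC line. DLL4 was not called in any comparison.

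The 3 tested ubiquitin ligases that act on the ligands were 0 higher and 1 lower in pXEN cells than in nESCs, and 1 higher and 2 lower than in pESCs, which is 1 and 3 of the 3 called beside 54.5% and 48.3% of all genes. MIB2 averaged 39.4, 55.1 and 28.5 FPKM in pXEN cells, nESCs and pESCs and differed in all comparisons (log2 fold change −0.49, 0.48 and −0.97, adjusted p = 0.00507, 0.00752 and 0.000756), and the call against pESCs was lost without either pESC line (0.0588 and 0.0717). MIB1, at 31.9, 39.5 and 40.8 FPKM, was called lower in pXEN cells than in pESCs (−0.35, adjusted p = 0.0458), which was lost without pXEN line 1 or 3 or either pESC line (adjusted p up to 0.281). NEURL1, a low gene named after its values were seen, had 1 to 5 counts in the pXEN lines and 27 and 19 in the pESC lines (adjusted p = 0.00832, and 0.0916 without pESC line 1). Of the 4 tested genes for glycosylation of the receptors, none was called in any comparison, and LFNG, which adds sugars to Notch, ranged from 25.7 to 83.2 FPKM among the pXEN lines, wider than its range of 36.1 to 49.5 FPKM in the ESC lines.

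Of the 7 proteases and protease subunits tested that cut Notch, 4 were higher and none lower in pXEN cells than in nESCs, and 5 were higher and none lower than in pESCs, which is 57.1% and 71.4% called beside 54.5% and 48.3% of all genes. FURIN, which cuts the receptor on its way to the surface, was at 373, 303 and 371 FPKM in the pXEN lines, 1.45 and 1.14 FPKM in the nESC lines and 48.7 and 60.3 FPKM in the pESC lines. It was 8.06 higher on the log2 scale than in nESCs (adjusted p = 3.22e-07) and 2.69 higher than in pESCs (adjusted p = 1.12e-05). APH1B, a γ-secretase subunit, was at 63.7, 41.2 and 75.9 FPKM in the pXEN lines, 3.34 and 4.33 FPKM in the nESC lines and 1.49 and 0.644 FPKM in the pESC lines (3.96 and 5.82 on the log2 scale, adjusted p = 6.36e-05 and 3.17e-05). For both genes every pXEN line lay above every ESC line.

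The other members of this group differed less. PSEN2, a catalytic γ-secretase subunit, averaged 29.5, 26.1 and 11.4 FPKM and was higher in pXEN cells than in pESCs (log2 fold change 1.38, adjusted p = 0.000376). Named after their values were seen, ADAM10, the protease that cuts ligand-bound Notch at the surface, was higher by 0.85 and 0.53 (adjusted p = 0.000246 and 0.0033), and NCSTN, a further γ-secretase subunit, by 0.80 and 0.46 (adjusted p = 0.00029 and 0.00551). Without pESC line 1 these calls against pESCs were lost (adjusted p = 0.0519 and 0.0502), and for NCSTN also without pESC line 2 (0.061). FURIN and the γ-secretase subunits also cut many proteins other than Notch.

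**Figure D5:**
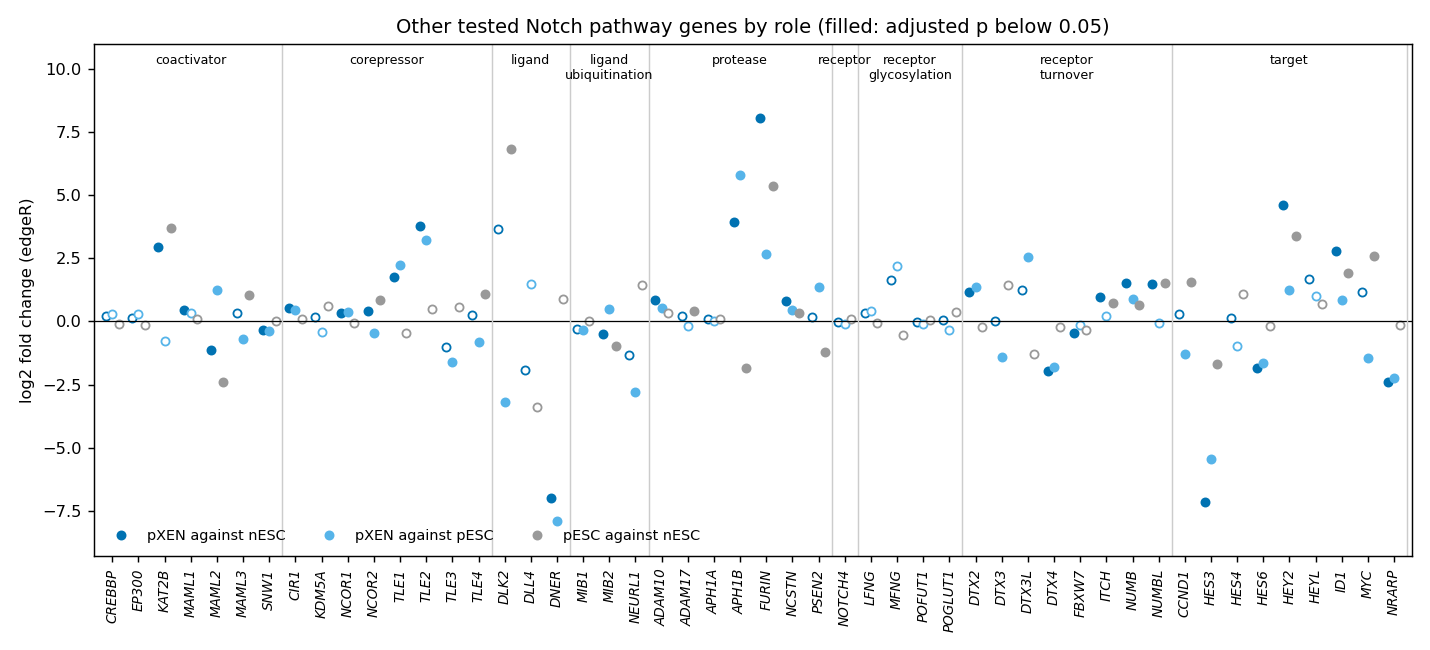
Log2 fold change (y axis) of the 50 other tested Notch pathway genes, sorted by role (x axis), in the 3 comparisons; filled points have an adjusted p below 0.05 in edgeR's test. The proteases FURIN and APH1B lie above 0 in both pXEN comparisons, and DNER and HES3 lie far below 0.

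Genes for receptor turnover were mixed, with 4 of 8 higher and 2 lower against nESCs and 3 higher and 2 lower against pESCs, which is 75.0% and 62.5% called beside 54.5% and 48.3% of all genes. NUMB, an adaptor that inhibits Notch, averaged 9.85, 3.36 and 5.31 FPKM in pXEN cells, nESCs and pESCs, and was higher in pXEN cells than in nESCs and pESCs (log2 fold change 1.54 and 0.90, adjusted p = 9.85e-05 and 0.00175). Its relative NUMBL, at 18.5, 6.64 and 19.2 FPKM, was higher than in nESCs (1.47, adjusted p = 8.61e-05). DTX4, a Deltex ubiquitin ligase, was lower in pXEN cells, at 5.36 FPKM against 21.1 and 18.6 FPKM (−1.98 and −1.79, adjusted p = 0.000266 and 0.000585).

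Of 7 coactivators, 2 were higher and 2 lower against nESCs, and 1 was higher and 2 lower against pESCs, which is 57.1% and 42.9% called and near the 54.5% and 48.3% of all genes. KAT2B, an acetyltransferase also on chromosome 13, averaged 4.75, 0.602 and 8.07 FPKM and was higher in pXEN cells (log2 fold change 2.97, adjusted p = 0.000587) and in pESCs (3.72, adjusted p = 0.000645) than in nESCs. MAML2, a Mastermind coactivator, went the other way between these types, at 2.76, 6.01 and 1.16 FPKM (−1.12, 1.26 and −2.38, adjusted p = 0.0438, 0.0486 and 0.00725). Its calls in the pXEN comparisons were lost in most settings, among them DESeq2 (adjusted p = 0.0774 and 0.0765) and the fits without any 1 ESC line, and that between the ESC types without either pESC line (0.0578 and 0.0525). MAML3, at 4.33, 3.40 and 7.15 FPKM, was lower in pXEN cells than in pESCs (−0.71, adjusted p = 0.00915), a call lost without either pESC line (adjusted p = 0.0646 and 0.0535).

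Of 8 corepressors, 5 were higher and none lower in pXEN cells than in nESCs, and 4 were higher and 3 lower than in pESCs, which is 62.5% and 87.5% called beside 54.5% and 48.3% of all genes. The Groucho-family genes TLE1 and TLE2, which encode corepressors that HES proteins recruit, were the strongest. TLE2 was at 54.7, 28.1 and 68.7 FPKM in the pXEN lines and at 2.95 to 5.61 FPKM in the 4 ESC lines (log2 fold change 3.77 and 3.25, adjusted p = 0.000137 and 0.000324). TLE1 was at 59.2, 84.4 and 53.6 FPKM against 12.9 to 22.3 FPKM (1.77 and 2.23, adjusted p = 0.000463 and 0.000209). Neither overlapped between pXEN and ESC lines. TLE3 was lower than in pESCs (−1.60, adjusted p = 0.00989, and 0.0657 without pESC line 2).

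Of the 9 other tested genes listed as targets, 2 were higher and 3 lower in pXEN cells than in nESCs. Against pESCs, 2 were higher and 5 lower. This is 55.6% and 77.8% called beside 54.5% and 48.3% of all genes. Whether Notch regulates each of these genes in these cells was not tested. HEY2, a relative of HEY1, was at 3.94, 6.16 and 2.66 FPKM in the pXEN lines. It was at 0.231 and 0.103 FPKM in the nESC lines and 1.43 and 2.17 FPKM in the pESC lines. HEY2 was called higher in pXEN cells than in either ESC type (log2 fold change 4.63 and 1.25, adjusted p = 0.000323 and 0.0466). Line 2 held its highest pXEN value, and without that line the log2 fold changes were 4.26 and 0.88. The call against pESCs was lost without any 1 of the libraries except pXEN line 3 (adjusted p up to 0.243). ID1, an inhibitor of basic helix-loop-helix factors that is also a known BMP target, was at 357, 441 and 316 FPKM in the pXEN lines, 52.3 and 54.5 FPKM in the nESC lines and 209 and 201 FPKM in the pESC lines (2.79 and 0.86, adjusted p = 6.58e-06 and 0.00209). Its order of cell types was that of HES1.

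HES3, a further HES-family repressor, had 4, 4 and 0 counts in the pXEN lines, 466 and 403 in the nESC lines and 137 and 161 in the pESC lines. On pooled CPM it was 169.0-fold higher in nESCs than in pXEN cells (exact 95% counting interval 85.4 to 393.0) and 51.8-fold higher in pESCs (25.9 to 121.0), with adjusted p = 1.01e-05 and 6.85e-05. Its row overlaps GPR153 on the opposite strand, as TLE2 overlaps CELF5 and NUMB overlaps PAPLN, and the strand setting of the counting is not given in the sources used here. NRARP and HES6, named after their values were seen, were also lower in pXEN cells. NRARP, which encodes a feedback inhibitor of Notch, was at 2.65, 13.8 and 1.84 FPKM in the pXEN lines against 23.9 to 35.8 FPKM in the ESC lines (log2 fold change −2.40 and −2.25, adjusted p = 0.0191 and 0.0284). HES6 was at 12.8, 20.6 and 11.8 FPKM against 43.0 to 64.0 FPKM (−1.83 and −1.64, adjusted p = 0.000642 and 0.0014). Both were highest, among the pXEN lines, in line 2, and without that line NRARP was at −3.87 (adjusted p = 2.83e-05) and −3.72 (4.76e-05). The NRARP calls were lost without pXEN line 1 (adjusted p = 0.0515 and 0.0733) and without either line of the ESC type compared, and the call against pESCs also without pXEN line 3 (0.0543) or either nESC line (0.0508 and 0.0502).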

How the data were processed

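The authors deposited raw read counts per gene and FPKM for 7 libraries (rRNA-depleted, directional). The submitters' processing notes name HISAT2 2.0.5, featureCounts 1.5.0-p3, edgeR 3.22.5 and Sscrofa10.2. Counts were tested with edgeR 4.0.16 (R 4.3.3; filterByExpr, TMM, quasi-likelihood, 1 model of 7 libraries) and adjusted over 17447 genes. The SE is the log2 fold change over the root of F. Alternatives used DESeq2 1.42.0, limma 3.58.1 on log2(FPKM + 0.1) and log2(FPKM + 1), other size factors and filters, and left-out lines. The fit was tested on simulated data. The genes, lists and tests were chosen with earlier results of these data known. Of each role, at most 3 other genes were named by rule: called in at least 1 comparison, mean log2 CPM of at least 1, largest absolute log2 fold change. Symbols came from the tables, and 7 of the other pathway genes from an Ensembl name table. Of the list fixed for the other pathway genes, 1 gene is not reported here and was left out of the counts. RFNG, PSENEN and HES5 had no row. DLK1, NEURL1B, DTX1, SPEN, HDAC1, HES2 and HES7 were not tested. Each line is 1 replicate, and p-values measure the spread between lines.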

Additional observations from a re-analysis of the deposited data

How the results depend on the processing

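With 2 or 3 lines per cell type, the log2 fold changes of the 8 genes were recomputed 405 times over all comparisons and settings; 368 kept their direction and side of the threshold, 24 lost the call, 10 gained it and 3 changed sign. Of the other pathway genes named, 86 of 902 recomputed calls were lost and none changed sign. The sign changes were NOTCH2 in pXEN cells against pESCs without pESC line 1 (range −0.86 to 0.11 over left-out lines), and RBPJ between the ESC types with upper-quartile scaling (−0.09) and without nESC line 2 (range −0.03 to 0.03). Between pXEN cells and nESCs, the Notch 2 row on chromosome 4 changed sign with upper-quartile scaling (−0.14) and without nESC line 2 (range −0.01 to 0.07), and the row on the scaffold without pXEN line 1 (range −0.16 to 0.11). Upper-quartile scaling moved the median of all genes to −0.163 against nESCs. The replicate numbers did not pair the lines (correlations of deviations −0.00738 to 0.0321). With the number as a block, 2 of the 8 genes (from 4) and 10 other pathway genes (from 16) were lower in pXEN cells than in pESCs. HEY1 and RBPJ were lost. Lower calls over all genes fell from 4261 to 3447 in that fit. Between the ESC types, limma on log2(FPKM + 0.1) called 1 of the 8 higher (from 2), JAG2 being lost (adjusted p = 0.0584), and a minimum of 10 counts in every library left 3 other pathway genes lower (from 5). That filter removed HEY1.

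Leaving out 1 line at a time gave, of the 8 genes, 2 to 3 higher and 2 to 4 lower in pXEN cells against nESCs, 3 higher and 2 to 4 lower against pESCs, and 1 to 3 higher and 1 to 2 lower in pESCs against nESCs. The other pathway genes gave 14 to 22 higher and 5 to 9 lower, 8 to 18 higher and 7 to 17 lower, and 9 to 19 higher and 2 to 6 lower. The lowest counts came without an ESC line, except 5 lower against nESCs, without pXEN line 1. Calls over all genes moved as well. Without 1 pXEN line they numbered 8415 to 10359 against nESCs (9514 with all lines) and 7196 to 9566 against pESCs (8429 with all lines). Over all genes, calls between the ESC types fell from 5621 to between 2965 and 3712 without 1 of the ESC lines, and against pESCs from 8429 to 5553 without pESC line 2; with the 10-count filter, which tests fewer genes, they numbered 3878 between the ESC types. Where 1 line of a type was left, it is assumed to vary like the other lines.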

Other observations

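For each of the 8 genes, the tested gene with the most similar log2 CPM over the 7 libraries was looked up, as a description without a test; 7 points that fall into 3 cell types make high values common. EGFR was most like HES1 (Pearson's r 0.9986), SGSM1 most like NOTCH3 (0.9988), GPX3 most like DLL1 (0.9873), EIF2B3 most like JAG1 (0.9966), PPP2R1A most like JAG2 (0.9948), TMEM117 most like HEY1 (0.9948) and PFKP most like RBPJ (0.9981). The named NOTCH2 row had only SOX15 at 0.95 or above (0.9552), whereas HES1 had 593 such genes and JAG1 426.

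The nESC lines differed from each other in several ligands. DLL1 was at 8.80 FPKM in line 1 and 14.2 FPKM in line 2, JAG2 at 3.29 and 6.31 FPKM, DLL4 at 0.618 and 3.89 CPM, and the DLL3 row with most counts at 0.353 and 3.80 CPM. Of the 8 genes, 6 were higher in nESC line 2, as were 30 of the 50 other tested pathway genes and 49.9% of all genes tested. With 1 library per line this has no test, and it was noticed after the values were seen.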
